A study of Mus musculus with 6 samples.

Results

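The IL-6 receptor and gp130 family was followed through 5 genes in mouse CD8+ T cells: Il6ra, the IL-6 receptor alpha chain, Il6st, which encodes gp130, and the partner chains Il27ra, Lifr and Osmr. Probe sets were assigned by the gene symbol of the platform annotation, and the probe set with the highest mean represented a gene; each of the 5 had 1 probe set, among 19938 genes on the arrays. They were chosen by their log2 values on these same arrays, on which Il6ra and Il6st were known to differ in opposite directions between the primed groups, so their levels and differences are given as a description, without a test.

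RNA came from splenic CD8+ T cells of female C57BL/6 mice carrying the Pmel-1 T cell receptor transgene, which recognises the melanoma antigen gp100. IL-12 cells and IL-2 cells had been given gp100 for 4 days and stimulated by the named cytokine over 6 days, and naive cells were taken fresh from spleen and sorted as CD8+ Thy1.1+; the design text instead gives 6 days for antigen and cytokine. Each of the 3 groups held 2 arrays, and all 3 shared the strain, sex and transgene. The labels name a sort for the naive cells, none for the primed cells, and do not tell whether a group's arrays stand for different animals or cultures, so the spread between them may be technical.

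IL-6 binds its alpha chain, which has little signalling capacity of its own, and the pair recruits gp130, which activates Janus kinases and STAT3. The same gp130 chain pairs with the IL-27 receptor alpha chain for IL-27, with the LIF receptor for leukaemia inhibitory factor and with the oncostatin M receptor for oncostatin M. The alpha chain can also be shed from the cell by ADAM proteases, and its soluble form can bind IL-6 and engage gp130 on other cells. In T cells IL-6 and IL-27 are known to shape survival and helper and memory programmes.

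The 250 bases before the RefSeq gene starts of Il6ra and Il6st are shown because these genes differed in opposite directions, in the 5′ to 3′ direction of each gene. Capitals mark matches to TTNNNNNAA, a loose core of STAT sites, and to CACGTG, an E-box of the Myc and Max family. The Il6ra window lies at chr3:89913197-89913446 on the minus strand and the Il6st window at chr13:112463820-112464069 on the plus strand of GRCm38.p6.
Il6ra: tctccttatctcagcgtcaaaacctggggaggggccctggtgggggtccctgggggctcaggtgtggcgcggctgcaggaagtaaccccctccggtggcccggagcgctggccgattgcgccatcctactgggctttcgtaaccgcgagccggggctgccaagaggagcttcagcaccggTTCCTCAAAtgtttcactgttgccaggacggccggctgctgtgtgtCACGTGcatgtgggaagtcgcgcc
Il6st: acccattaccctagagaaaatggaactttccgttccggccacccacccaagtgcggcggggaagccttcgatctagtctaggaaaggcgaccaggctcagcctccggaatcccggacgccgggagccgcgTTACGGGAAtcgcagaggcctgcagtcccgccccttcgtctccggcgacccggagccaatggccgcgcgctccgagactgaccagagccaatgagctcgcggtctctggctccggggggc

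Both windows were rich in G and C, at 65.2% for Il6ra and 66.0% for Il6st, against a median of 52.4% over 32817 promoter windows of the same length. All motifs were searched on both strands. The E-box stood 24 to 19 bases before the Il6ra start, was absent from the Il6st window and occurred in 6.02% of all windows. The Il6st window held 2 CCAAT boxes (33.8% of all windows hold at least 1), 2 matches to the ETS core CCGGAA (12.0%) and 1 GC box, GGGCGG (32.7%), and the Il6ra window held none of these. TTNNNNNAA occurred once in each window and in 55.2% of all windows. Neither window held the full palindrome TTCNNNGAA (7.01% of windows), the FOXO site GTAAACA (3.16%) or the RUNX site TGTGGT (14.0%). The match in Il6st read TTACGGGAA, 120 to 112 bases before the start, and the Osmr window on chromosome 15 held the same letters on the opposite strand, 35 to 27 bases before its start. These letters, searched after they had been seen, stood in 32 of the 32817 windows, 0.0975%. Of the 5 genes, 4 had a promoter window. These matches are letters in a window and say nothing of binding.

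Il6ra was highest in naive cells, lower in IL-2 cells and lowest in IL-12 cells. Its log2 RMA values (probe set 10499655) were 7.71 and 7.50 on the IL-12 arrays, 9.999 and 10.33 on the IL-2 arrays, and 11.29 and 11.37 on the naive arrays. No group overlapped another. The means were 7.61 ± 0.14 in IL-12, 10.17 ± 0.24 in IL-2 and 11.33 ± 0.055 in naive cells (SD, n = 2 arrays each). The log2 difference was -2.56 ± 0.14 for IL-12 minus IL-2, -1.17 ± 0.14 for IL-2 minus naive and -3.73 ± 0.14 for IL-12 minus naive (SE of the limma fit), the last a level 13.2-fold lower in IL-12 than in naive cells. The IL-12 minus IL-2 difference was the 8th lowest of 11147 tested genes, and the IL-12 minus naive difference the 14th lowest. The IL-2 minus naive difference was the 300th lowest. Since these values chose the gene, nothing is read from the ranks.

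Il6st, the shared signalling chain, was also highest in naive cells, but its primed groups stood in the other order. It gave 11.17 and 11.10 on the IL-12 arrays, 9.94 and 10.02 on the IL-2 arrays, and 12.04 and 11.98 on the naive arrays (probe set 10407173). Both IL-12 arrays lay between the IL-2 and the naive arrays. The means were 11.14 ± 0.043 in IL-12, 9.98 ± 0.061 in IL-2 and 12.01 ± 0.043 in naive cells (SD, n = 2 arrays each). The log2 difference was 1.16 ± 0.10 for IL-12 minus IL-2, a level 2.23-fold higher in IL-12 cells. It was -2.03 ± 0.10 for IL-2 minus naive, 4.09-fold lower in IL-2 cells, and -0.88 ± 0.10 for IL-12 minus naive, 1.83-fold lower in IL-12 cells. Il6ra and Il6st therefore differed in opposite directions only between the primed groups, and both read lower in either primed group than in naive cells. The within-array ratio of Il6ra to Il6st differed by -3.72 log2 units for IL-12 minus IL-2, by 0.87 for IL-2 minus naive and by -2.85 for IL-12 minus naive.

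Il27ra, the IL-27 receptor alpha chain that signals together with gp130, stood in the same order as Il6ra with smaller differences. It gave 10.36 and 10.34 on the IL-12 arrays, 10.92 and 11.05 on the IL-2 arrays, and 12.22 and 12.08 on the naive arrays (probe set 10580061). No group overlapped another. The means were 10.35 ± 0.012 in IL-12, 10.98 ± 0.093 in IL-2 and 12.15 ± 0.098 in naive cells (SD, n = 2 arrays each). The log2 difference was -0.64 ± 0.11 for IL-12 minus IL-2, -1.17 ± 0.11 for IL-2 minus naive and -1.804 ± 0.11 for IL-12 minus naive. Its level was thus 1.55-fold lower in IL-12 than in IL-2 cells and 3.49-fold lower in IL-12 than in naive cells.

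Lifr and Osmr, the chains that pair with gp130 for leukaemia inhibitory factor and oncostatin M, gave low readings on all arrays. Lifr gave 5.14 and 5.23 on the IL-12 arrays, 5.13 and 4.94 on the IL-2 arrays, and 5.15 and 5.16 on the naive arrays (probe set 10422822). Osmr gave 5.24 and 5.40 on the IL-12 arrays, 5.35 and 5.39 on the IL-2 arrays, and 5.36 and 5.33 on the naive arrays (probe set 10427471). Genes were tested where at least 2 of 6 arrays exceeded 6.83, the median of all values, and these 2 genes did not pass, their highest reading being 5.40 while the lowest reading of the other 3 was 7.50. Probe sets of 3 Y-linked genes, which these female cells lack, read from 3.29 to 5.002. The largest of the Lifr and Osmr log2 differences between groups was 0.15 ± 0.11, for Lifr in IL-12 minus IL-2 cells, so no difference could be read at this signal.

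Read against all tested genes, arrays that do not overlap were common. Between IL-12 and IL-2 cells 69.5% of genes had no overlap: 36.1% had both IL-12 arrays higher and 33.4% had both lower. Between IL-2 and naive cells the share was 73.9%, with both IL-2 arrays higher in 38.7% and lower in 35.2%. Between IL-12 and naive cells it was 79.2%, with both IL-12 arrays higher in 42.5% and lower in 36.7%. The order of Il6ra and Il27ra, naive above IL-2 above IL-12 with no overlap, was found in 15.0% of the tested genes. The order of Il6st, naive above IL-12 above IL-2, was found in 4.37%. Because these patterns chose the genes, nothing is read from them. The comparisons with naive cells share the 2 naive arrays.

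**Figure D1:**
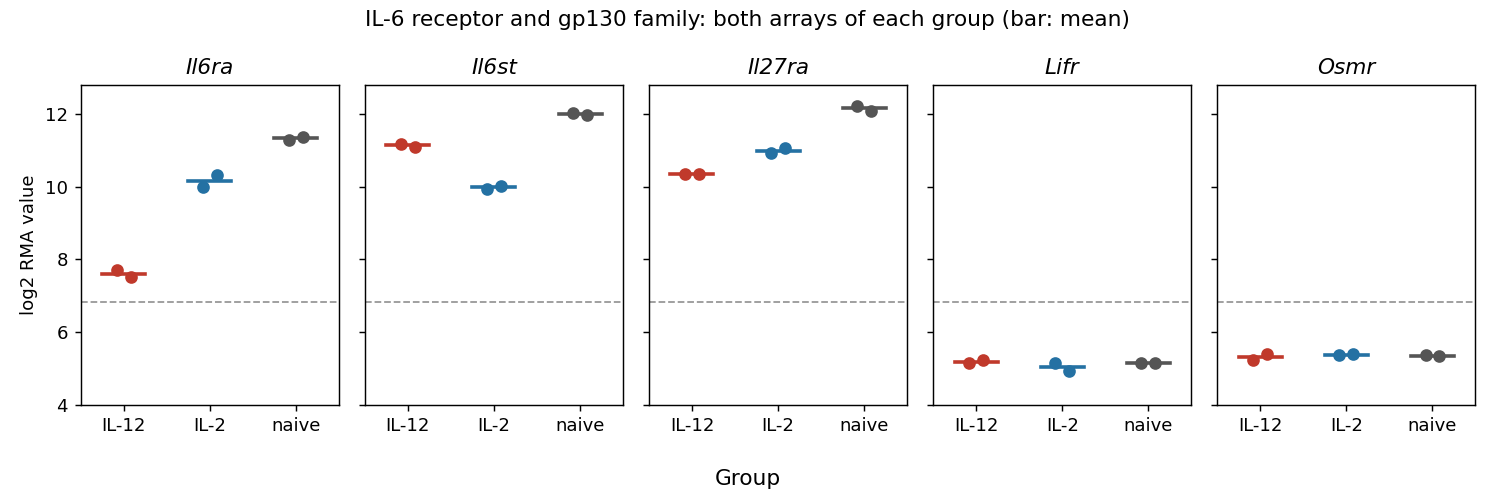
The log2 RMA value (vertical axis) of each array is plotted for the IL-12, IL-2 and naive groups (horizontal axis) in a panel per gene; points are arrays, bars group means, and the dashed line is 6.83, the median of all values. Il6ra and Il27ra step down in the order naive, IL-2, IL-12, the IL-12 arrays of Il6st (11.17 and 11.10) lie above its IL-2 arrays (9.94 and 10.02), and Lifr and Osmr stay below the line.

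The genes whose centred profiles over the 6 arrays lay closest to each chain, by root mean square difference in log2 units, differed between Il6ra and Il6st. Closest to Il6ra was St6gal1, a sialyltransferase, at 0.19. Timp2, an inhibitor of metalloproteinases, followed at 0.34, the proprotein convertase gene Pcsk1 at 0.40, Rtp4 at 0.41 and Tespa1, a T cell receptor signalling protein of thymocytes, at 0.42. St6gal1 gave 7.38 and 6.83 on the IL-12 arrays, 9.35 and 9.36 on the IL-2 arrays, and 10.58 and 10.71 on the naive arrays, the same steps as Il6ra. Without 1 array, between 2 and 4 of these 5 genes stayed among the closest 5 (2 without IL-12 replicate 2).

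Closest to Il6st was Cd79b, a chain of the B cell receptor, at 0.14. Ctsh, which encodes cathepsin H, followed at 0.16, Ankrd55 at 0.17, Tgfbr3, a TGF-beta co-receptor, at 0.19 and the immunoglobulin kappa variable gene Igkv19-93 at 0.19. Cd79b gave 9.87 and 9.79 on the IL-12 arrays, 8.93 and 8.93 on the IL-2 arrays, and 10.71 and 10.96 on the naive arrays. Ankrd55 is the protein-coding gene next to Il6st on chromosome 13 in GRCm38.p6 and gave 6.72 and 6.89 on the IL-12 arrays, 5.70 and 6.12 on the IL-2 arrays, and 7.67 and 7.84 on the naive arrays. On the other side of Il6st lies Il31ra, the IL-31 receptor chain, which did not pass the filter. Between 2 and 4 of the 5 genes stayed among the closest 5 without 1 array (2 without naive replicate 1), and 2 did so with quantile normalization or with the filter at the 75th percentile.

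**Figure D2:**
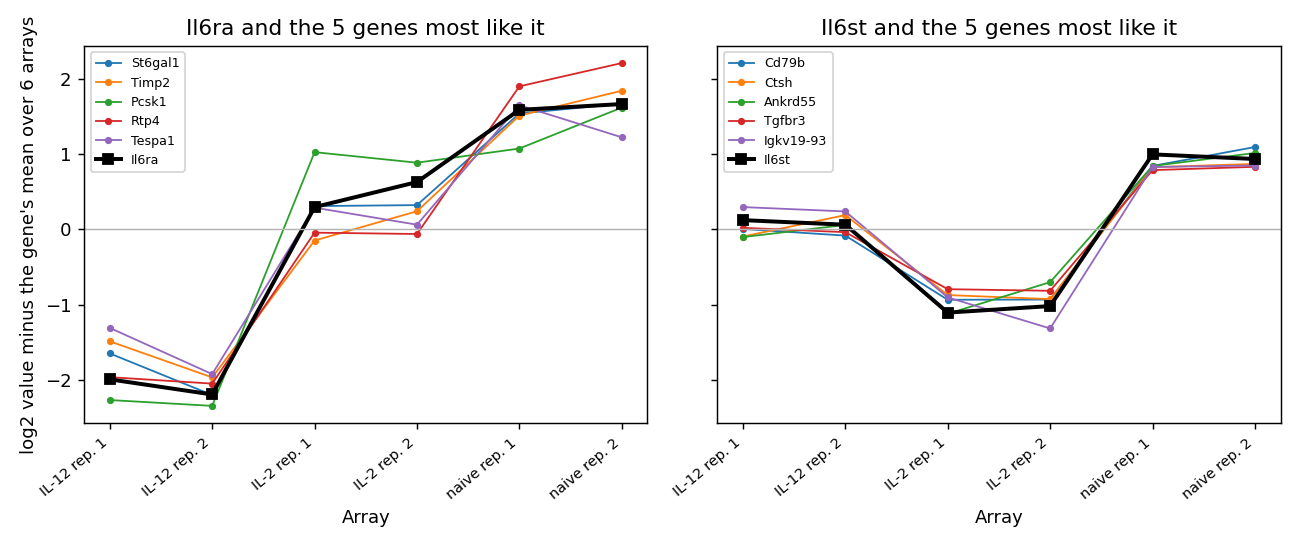
Log2 values of Il6ra (left) and Il6st (right), in black, and of the 5 genes most like each, are plotted over the 6 arrays after subtraction of each gene's own mean. The Il6ra panel steps up from the IL-12 to the naive arrays, and the Il6st panel dips on the IL-2 arrays.

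The B cell and MHC class II marker lists stood, in their summed values, in the order of Il6st. Of 11 tested B cell markers 9 rose while none fell in IL-12 cells relative to IL-2 cells, and all 11 fell in IL-2 and in IL-12 cells against naive cells (limma, Benjamini-Hochberg adjusted p under 0.05), where 9.82% of all tested genes rose between the primed groups, and 19.9% and 26.7% fell in IL-2 and in IL-12 cells against naive cells. Their summed linear values, on the log2 scale, were 11.39 and 11.41 on the IL-12 arrays, 10.33 and 10.32 on the IL-2 arrays, and 12.48 and 12.50 on the naive arrays, the order seen for Il6st. Of these markers Blk, Ebf1, Fcer2a and Cr2 exceeded 6.83 only on the naive arrays. They were tested through the group where they were high, so their fall against naive cells was partly set beforehand. Their readings in both primed groups lay below 6.83, so no difference between IL-12 and IL-2 cells is read for them. Of 6 MHC class II genes 5 rose in IL-12 cells relative to IL-2 cells, with summed values of 12.17 and 11.98 on the IL-12 arrays, 11.03 and 10.996 on the IL-2 arrays, and 13.21 and 13.17 on the naive arrays. Of 8 tested myeloid and dendritic markers 2 rose and 6 were not called in IL-12 cells relative to IL-2 cells. Against naive cells 7 of 8 fell in IL-2 cells, and 6 fell and 1 rose in IL-12 cells. Lyz2, Csf1r, Adgre1 and Mpeg1 exceeded 6.83 only on the naive arrays, and Itgam did so only on the IL-12 arrays. These genes were tested through the group where they were high, so the counts were partly set beforehand. Summed values of the myeloid and dendritic list were 10.18 and 10.196 on the IL-12 arrays, 10.08 and 9.90 on the IL-2 arrays, and 11.55 and 11.76 on the naive arrays. The part of these markers' cells in the Il6st and Il6ra values was not tested. In bulk RNA fewer cells that express a gene and less RNA per cell cannot be told apart.

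All 9 measured CD8 T cell markers lay above the median of all values on every array, with summed values from 15.27 to 15.72. Both IL-12 arrays (15.29 and 15.27) lay below the IL-2 and naive arrays. Of those 9 markers 5 fell and none rose in IL-12 cells relative to IL-2 cells, 55.6% of the list beside 11.0% of all tested genes, and 6 fell in IL-12 against naive cells, 66.7% beside 26.7%. Of 4 measured markers of CD4 and regulatory T cells, named here after their values were seen, Cd4 averaged 6.43 in IL-12, 6.25 in IL-2 and 6.59 in naive cells and, like Cd40lg, did not pass the filter. Foxp3 passed the filter and read from 6.96 to 7.42 over all arrays. Zbtb7b, a transcription factor known for the CD4 lineage, gave 8.87 and 8.62 on the IL-12 arrays, 9.01 and 9.15 on the IL-2 arrays, and 7.01 and 7.41 on the naive arrays. It rose by 1.87 ± 0.15 in IL-2 and by 1.54 ± 0.15 in IL-12 cells against naive cells (limma adjusted p = 2.15e-05 and 4.47e-05). None of the 3 measured natural killer cell markers passed the filter.

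**Figure D3:**
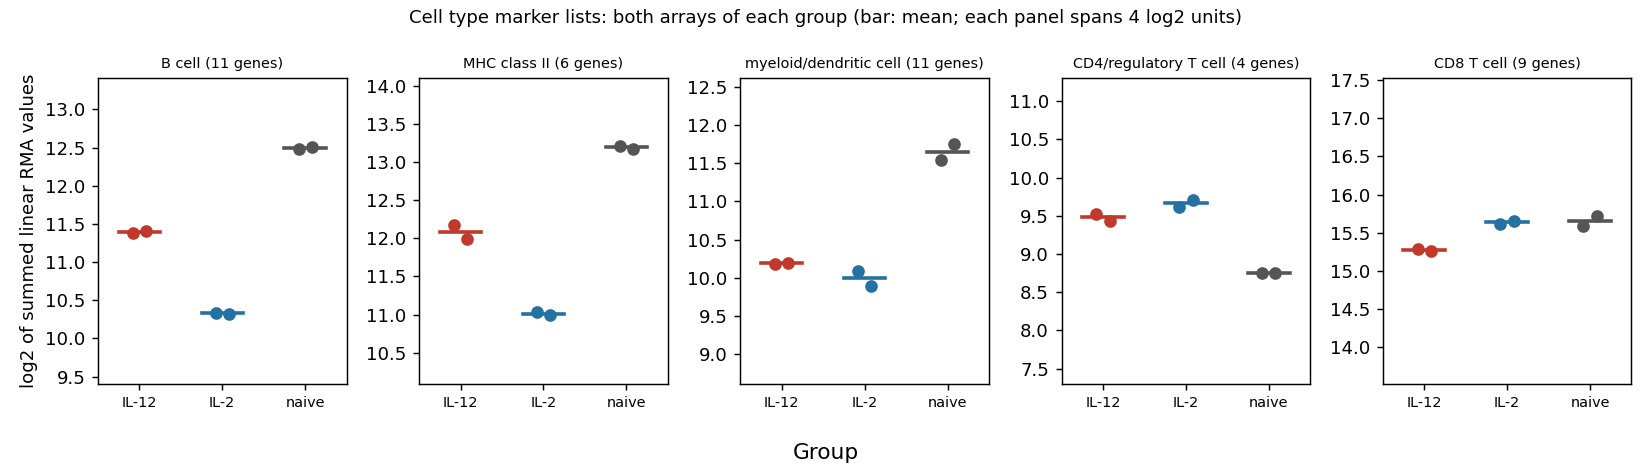
The log2 of summed linear RMA values (vertical axis) of 5 marker lists is plotted for both arrays of the IL-12, IL-2 and naive groups, with bars for the means. B cell and MHC class II markers are highest in naive and lowest in IL-2 cells, as Il6st is. CD8 T cell markers lie between 15.27 and 15.72, with both IL-12 arrays (15.29 and 15.27) below the IL-2 and naive arrays.

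Between IL-12 and IL-2 cells, the genes around these receptors were counted on lists of ligands, related receptor chains, signal transducers, inhibitors, shedding factors and STAT3-responsive genes. Of 66 listed genes 60 were measured and 46 tested. At an adjusted p under 0.05 in limma 15 rose and 6 fell, that is 32.6% and 13.04% of the list, beside 9.82% and 11.0% of all 11147 tested genes (20.8% in either direction). The median log2 difference was 0.21 for the list and 0.02 for all genes. The lists were drawn up with earlier results of these data known, so the excess over all genes may be built in.

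Among 4 tested ligand genes only Ebi3, the subunit of IL-27 and IL-35, passed, and it fell: it read 7.55 and 7.43 in IL-12 cells and 8.33 and 8.33 in IL-2 cells (log2 difference -0.84 ± 0.10; limma adjusted p = 0.000851). That is 25% of the ligand list called, near the 20.8% of all tested genes. Il27, the partner subunit of Ebi3 in IL-27, differed by 0.04 ± 0.12 and Osm, oncostatin M, by 0.12 ± 0.11 (limma adjusted p = 0.863 and 0.448). The ligand gene Clcf1 differed by -0.43 ± 0.14 (limma adjusted p = 0.0571). It passed when only the groups compared were fitted (limma adjusted p = 0.0192). Il6 read from 3.49 to 3.92 and Lif from 5.68 to 5.98 over all arrays, and neither passed the filter. Both tested related chains, those of the IL-12 receptor, rose, 100% of that list beside 9.82% of all tested genes. Il12rb2, its inducible chain, read 12.30 and 12.17 in IL-12 cells and 10.64 and 10.38 in IL-2 cells (log2 difference 1.73 ± 0.13; limma adjusted p = 6.17e-05). Il12rb1 rose by 0.51 ± 0.10 (limma adjusted p = 0.00766), a difference that no longer passed after leaving out IL-12 replicate 2 (0.066), IL-2 replicate 1 (0.0724) or IL-2 replicate 2 (0.0703).

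Of 10 tested signal transducers 1 rose and 1 fell between IL-12 and IL-2 cells, 20% called beside 20.8% of all tested genes. Stat5a, a transcription factor activated mainly by other cytokines such as IL-2, read 10.46 and 10.22 in IL-12 cells and 9.42 and 9.58 in IL-2 cells (log2 difference 0.84 ± 0.12; limma adjusted p = 0.00189). The kinase gene Jak2 fell by 0.43 on the log2 scale (limma adjusted p = 0.0165), a difference that no longer passed after leaving out IL-12 replicate 1 or 2 (0.107 and 0.0754) or IL-2 replicate 1 or 2 (0.108 and 0.125). Stat3, the main transcription factor downstream of gp130, differed by 0.24 ± 0.12 and Jak1, the kinase gp130 depends on most, by -0.27 ± 0.10 (limma adjusted p = 0.171 and 0.0846). Jak1 passed with a trended and robust variance model (limma adjusted p = 0.041) and when only the groups compared were fitted (0.0414).

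Among 8 inhibitors of JAK and STAT signalling 2 rose and 3 fell in IL-12 cells relative to IL-2 cells. That is 62.5% called, beside 20.8% of all tested genes. Socs3, which binds gp130 and limits IL-6 signalling, read 9.04 and 8.96 in IL-12 cells and 8.39 and 8.66 in IL-2 cells (log2 difference 0.47 ± 0.13; limma adjusted p = 0.0377). That call was lost without any 1 of the 4 primed arrays and with median-centred arrays (0.0535), with adjusted p of 0.163 and 0.126 without IL-12 replicate 1 or 2 and 0.253 and 0.0712 without IL-2 replicate 1 or 2. The phosphatase gene Ptpn2 rose by 0.52 ± 0.10 (limma adjusted p = 0.0101), a difference that no longer passed after leaving out IL-12 replicate 2 (0.082), IL-2 replicate 1 (0.0525) or IL-2 replicate 2 (0.111), or with the mean of its probe sets (0.0831). Socs2 fell by 1.35 and Cish by 1.03 on the log2 scale, both known as targets of STAT5 (limma adjusted p = 0.00174 and 0.000296). Pias3, named for its binding of STAT3, fell by 0.59 (limma adjusted p = 0.00563), a difference that no longer passed after leaving out IL-12 replicate 1 (0.0526), IL-2 replicate 1 (0.0564) or IL-2 replicate 2 (0.0558). Socs1 differed by 0.51 ± 0.20 (limma adjusted p = 0.098), and passed when only the groups compared were fitted (0.0403).

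Of 5 tested genes of IL-6 receptor shedding and trafficking 3 rose and 1 fell in IL-12 cells relative to IL-2 cells. That is 80% called, beside 20.8% of all tested genes. Timp3, an inhibitor of ADAM17, read 7.87 and 7.78 in IL-12 cells and 5.54 and 5.36 in IL-2 cells (log2 difference 2.38 ± 0.15; limma adjusted p = 2.57e-05). Timp3 exceeded 6.83 only on the IL-12 arrays, so it was tested through the group where it was high. Its IL-2 readings lay near those of the Y-linked genes, up to 5.002, so the size of the difference is uncertain. Rhbdf2, which encodes the ADAM17 escort iRhom2, rose by 0.96 ± 0.10 (limma adjusted p = 0.000365). Adam17 itself, which cleaves the receptor from the cell, read 10.37 and 10.43 in IL-12 cells and 10.06 and 10.09 in IL-2 cells (log2 difference 0.33 ± 0.10; limma adjusted p = 0.047). It lay just inside the threshold and outside it without any 1 of those 4 arrays, at 0.137 to 0.241. Adam10, another sheddase, differed by -0.28 ± 0.12 (limma adjusted p = 0.129). Sorl1, a sorting receptor known to bind the IL-6 receptor, read 8.29 and 8.21 in IL-12 cells and 9.14 and 8.90 in IL-2 cells (log2 difference -0.77 ± 0.15; limma adjusted p = 0.00806), a difference that no longer passed after leaving out IL-12 replicate 2 (0.0568) or IL-2 replicate 1 (0.0759).

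Of 17 tested STAT3-responsive genes 7 rose while none fell between IL-12 and IL-2 cells, with a median log2 difference of 0.43. The share that rose was 41.2%, beside 9.82% of all tested genes. Il10, which encodes interleukin 10, led them with 10.45 and 10.46 in IL-12 cells and 5.18 and 5.46 in IL-2 cells (log2 difference 5.14 ± 0.12; limma adjusted p = 3.5e-07). Il10 too exceeded 6.83 only on the IL-12 arrays. Its IL-2 readings lay near the Y-linked ones, so the size of its difference is uncertain. Pim2, a survival kinase, rose by 1.26 ± 0.12 and Bcl3, a regulator of NF-kB, by 1.19 ± 0.11 (limma adjusted p = 0.00024 and 0.000179). Bcl6, a transcriptional repressor, read 8.12 and 7.90 in IL-12 cells and 7.31 and 7.26 in IL-2 cells (log2 difference 0.73 ± 0.11; limma adjusted p = 0.00271). Several of these genes respond to other STAT proteins as well, and the list was drawn up with earlier results of these data known.

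**Figure D4:**
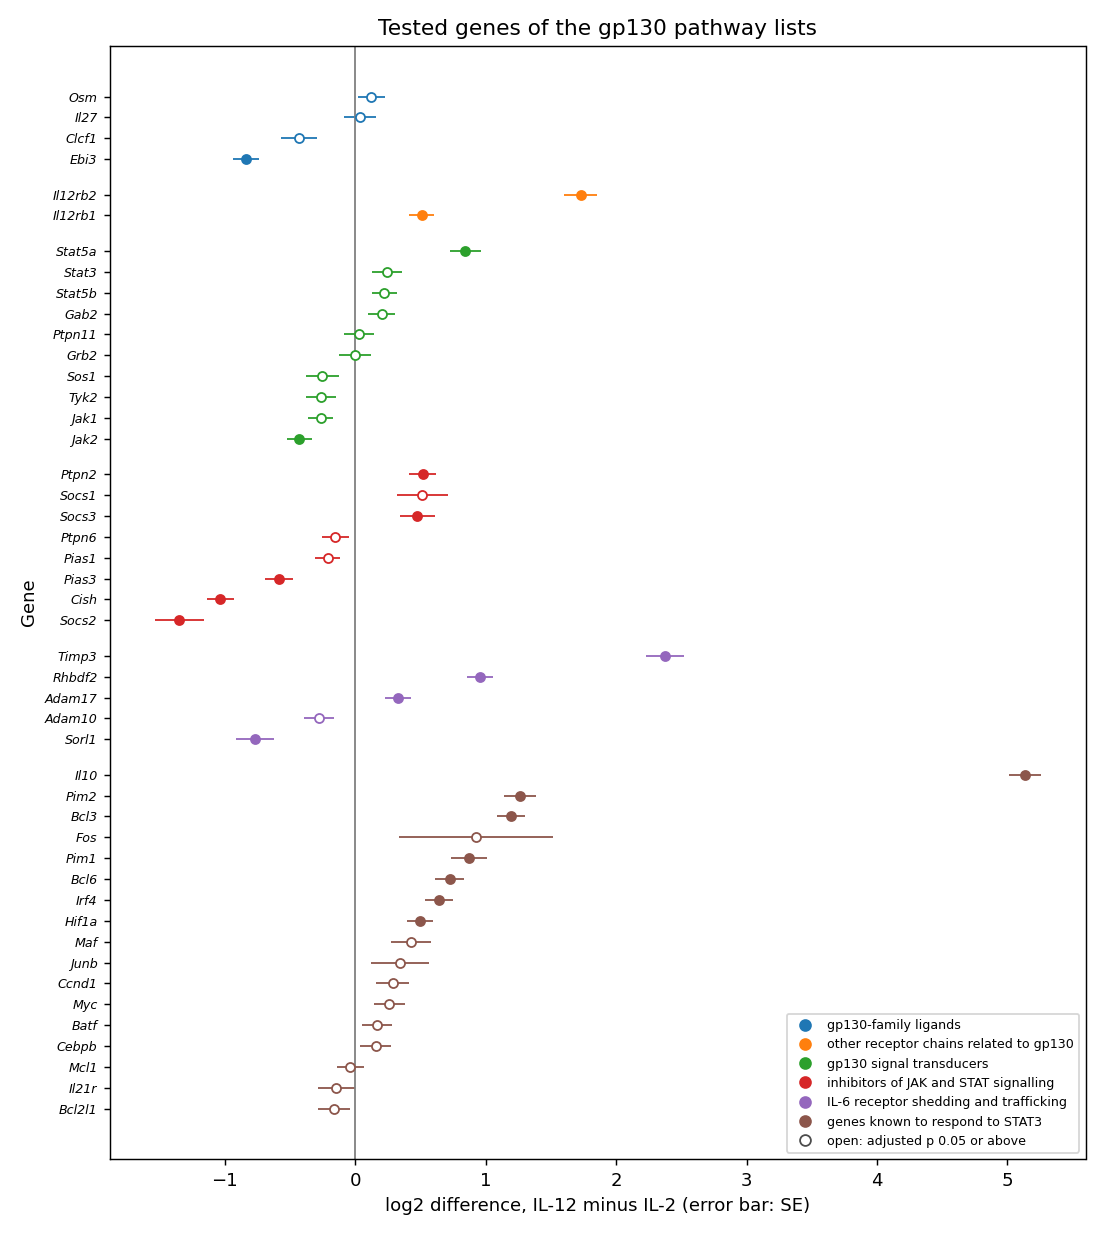
The log2 difference of IL-12 minus IL-2 cells (horizontal axis, error bars SE of the limma fit) is plotted for the 46 tested pathway genes, coloured by list; filled points passed at an adjusted p of 0.05. Il10 lies farthest right at 5.14, Timp3 at 2.38 and Il12rb2 at 1.73, and Socs2 lies farthest left at -1.35. Il10 and Timp3 exceeded 6.83 only on the IL-12 arrays.

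Between IL-2 and naive cells 14 of the 46 genes rose and 13 fell, 30.4% and 28.3%, beside 25.8% and 19.9% of all tested genes (45.7% in either direction). The median was -0.01 for the list and 0.01 for all genes. Ebi3 rose by 1.05 ± 0.10, whereas Clcf1, a ligand of the ciliary neurotrophic factor receptor complex, read 8.73 and 8.97 in IL-2 cells and 10.70 and 10.36 in naive cells and fell by 1.68 (limma adjusted p = 6.18e-05 and 2.23e-05). Il12rb2 rose by 2.63 ± 0.13 and Il12rb1 by 0.95 ± 0.10 (limma adjusted p = 7.14e-07 and 8.47e-05). Of 10 transducers 3 fell and none rose: Jak1 by 0.75, Sos1, a Ras activator, by 1.09 and Stat3 by 0.35 (limma adjusted p = 0.000329, 0.00018 and 0.0339). Stat3 no longer passed after leaving out IL-2 replicate 1 (0.138), IL-2 replicate 2 (0.142) or naive replicate 1 (0.108), or with median-centred arrays (0.114).

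Socs2 showed the largest rise of the list in IL-2 against naive cells: it read 10.49 and 10.58 in IL-2 cells and 6.37 and 6.69 in naive cells (log2 difference 4.00 ± 0.19; limma adjusted p = 6.33e-07). The naive readings of Socs2 lay below 6.83. It was tested through the primed groups where it was high, so its rise was partly set beforehand. Cish rose by 1.24 ± 0.10 and Pias3 by 0.80 ± 0.10, while Socs3 read 8.39 and 8.66 in IL-2 cells and 9.49 and 9.75 in naive cells and fell by 1.09 (limma adjusted p = 2.51e-05, 0.000363 and 0.000255). Sorl1 read 9.14 and 8.90 in IL-2 cells and 10.88 and 10.48 in naive cells and fell by 1.66 (limma adjusted p = 3.75e-05). Adam10 rose by 0.38 ± 0.12 (limma adjusted p = 0.0282), a difference that no longer passed after leaving out IL-2 replicate 1 (0.112), IL-2 replicate 2 (0.135) or naive replicate 1 (0.0959). With quantile normalization Adam10 did not pass either (limma adjusted p = 0.0659). Of 17 STAT3-responsive genes 7 rose and 5 fell, 41.2% and 29.4% beside 25.8% and 19.9% of all tested genes. Among those that rose, Il10 read 5.18 and 5.46 in IL-2 cells and 4.52 and 4.67 in naive cells. These readings all lay below 6.83, and Il10 was tested only through its IL-12 arrays, so no difference is read for it. Irf4, a transcription factor of lymphocyte activation, rose by 1.83 ± 0.11, the survival kinase Pim1 by 1.13 ± 0.14 and Batf, a transcription factor of activated T cells, by 0.68 ± 0.11, and Bcl6 fell by 0.90 (limma adjusted p = 2.79e-06, 0.000255, 0.00155 and 0.000267).

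Between IL-12 and naive cells 17 of the 46 genes rose and 11 fell, 37.0% and 23.9%, beside 31.2% and 26.7% of all tested genes (57.9% in either direction), with medians of 0.16 and 0.04. Clcf1 was the ligand gene that fell, by 2.11 (limma adjusted p = 3.61e-06), while Ebi3 read 7.55 and 7.43 in IL-12 cells and 7.24 and 7.31 in naive cells (log2 difference 0.22 ± 0.10; limma adjusted p = 0.0994). Ebi3 passed with quantile normalization (log2 difference 0.34, limma adjusted p = 0.0301) and with median-centred arrays (0.33, limma adjusted p = 0.0361). Il12rb2 rose by 4.36 ± 0.13 and Il12rb1 by 1.46 ± 0.10 (limma adjusted p = 4.08e-08 and 4.05e-06). Of 10 transducers 4 fell, among them Jak1 by 1.02, Sos1 by 1.35 and Jak2 by 0.42, and Stat5a rose by 0.55 ± 0.12 (limma adjusted p = 3.28e-05, 3.1e-05, 0.00577 and 0.00394).

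Of 8 inhibitors 2 rose and 3 fell in IL-12 against naive cells, 62.5% called beside 57.9% of all tested genes. Socs2 rose by 2.65 ± 0.19 and Ptpn2 by 0.79 ± 0.10, and Socs3 fell by 0.62, Pias1 by 0.57 and the phosphatase gene Ptpn6 by 0.52 (limma adjusted p = 6e-06, 0.000245, 0.00376, 0.00111 and 0.00255). Of 5 shedding and trafficking genes 3 rose and 1 fell, 80% called beside the same 57.9%. Timp3 rose by 2.35 ± 0.15, Rhbdf2 by 0.89 ± 0.10 and Adam17 by 0.39 ± 0.10 (limma adjusted p = 2.56e-06, 8.82e-05 and 0.0088), and Adam17 no longer passed after leaving out IL-12 replicate 2 (0.0657). With the mean of its probe sets Ptpn2 did not pass (0.107). Sorl1 read 8.29 and 8.21 in IL-12 cells and 10.88 and 10.48 in naive cells, and fell by 2.43 on the log2 scale (limma adjusted p = 2.28e-06). Of 17 STAT3-responsive genes 9 rose and 2 fell, 64.7% called beside the same 57.9%. Il10 read 10.45 and 10.46 in IL-12 cells and 4.52 and 4.67 in naive cells, and Irf4 rose by 2.47 ± 0.11, Pim1 by 2.001 ± 0.14 and Pim2 by 1.72 ± 0.12 (limma adjusted p = 2.75e-08, 3.05e-07, 5.13e-06 and 5.65e-06). Both Timp3 and Il10 were tested through their IL-12 arrays alone, and their naive readings lay below 6.83. The naive readings of Socs2 also lay below 6.83, and it was tested through its primed arrays. The rises of these genes against naive cells were thus partly set beforehand.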

How the data were processed

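The deposited values are log2 RMA values of 35556 probe sets on 6 Affymetrix arrays, which the authors obtained with RMA according to the submitters' processing notes; the version and settings are not given in the sources used here. RMA corrects background, quantile-normalizes arrays and summarises probes, so a change shared by most genes would largely be hidden; the deposited arrays were close to, but not at, one distribution (medians 6.78 to 6.95, sorted values up to 0.233 from their mean). Of the value columns 0 belonged to no sample. Probe sets with 1 symbol (21789) gave 19938 genes, of which 11147 had at least 2 arrays above the 50th percentile of all values (6.83). A linear model with a mean for each group was fitted to all 6 arrays (limma 3.58.1, R 4.3.3, with eBayes moderation and 3 residual degrees of freedom), two-sided, with Benjamini-Hochberg adjustment over all tested genes at 0.05, and the fit was tested on simulated data. The number of arrays limits the precision. The 5 genes and all lists were chosen with earlier results of these data known. Named pathway genes were a fixed set, 1 of which is not reported here, and, per list and comparison, up to 4 with the smallest adjusted p whose arrays did not overlap; those most like Il6ra and Il6st were the 5 nearest, without predicted genes and clone names. Promoter windows came from RefSeq, GRCm38.p6; gene identifiers matched for 21698 probe sets. Probe sets listed with several symbols (1621) and unlisted ones (12146) were set aside. Alternatives were other filters, probe set means, 2 further normalizations, other variance models and fits, a replicate block and leaving out each array.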

Additional observations from a re-analysis of the deposited data

Results flagged for a closer look

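Stat5a read 10.46 and 10.22 on the IL-12 arrays, above both naive arrays (9.83 and 9.76), and 9.42 and 9.58 on the IL-2 arrays, below them. Its log2 difference was 0.55 for IL-12 minus naive and -0.29 for IL-2 minus naive. The Rhbdf2 difference was 0.89 for IL-12 minus naive and -0.068 ± 0.10 (SE) for IL-2 minus naive, with 8.98 and 8.92 on the IL-12 arrays, 8.03 and 7.94 on the IL-2 arrays, and 8.05 and 8.06 on the naive arrays. Both comparisons share the naive arrays, and the difference in sign against naive cells was not tested. The direct IL-12 minus IL-2 difference passed limma's test for both genes (adjusted p = 0.00189 for Stat5a and 0.000365 for Rhbdf2), while neither passed it for IL-2 against naive cells (adjusted p = 0.0743 and 0.613).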

How the results depend on the processing

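Il6ra and Il6st kept the direction of all 3 differences under every alternative run. Without 1 array the Il6ra difference ranged from -2.73 to -2.39 (IL-12 minus IL-2) and from -1.33 to -0.999 (IL-2 minus naive). The Il6st difference was -2.09 with quantile normalization and -1.93 with median centring for IL-2 minus naive, and -0.97 and -0.76 for IL-12 minus naive. Centring each array on its median gave a median log2 difference over all genes of 0.11, beside 0.01, for IL-2 minus naive and of 0.16, beside 0.04, for IL-12 minus naive, and higher genes then made up 67.5% (3274 higher, 1574 lower) and 63.6% of the calls, beside 56.4% and 54.0%. The count of pathway genes lower in IL-2 than in naive cells was 8 with that centring, beside 13, and ranged from 8 to 12 without 1 array, 8 being without IL-2 replicate 1. The count lower in IL-12 than in IL-2 cells ranged from 3 to 8 without 1 array, beside 6, with 3 without IL-2 replicate 1. Of the 5 genes most like Il6ra 2 to 4 were shared without 1 array; for Il6st 2 to 4 were, 2 with quantile normalization and 2 with the 75th percentile filter. For single named genes 1218 of the alternative values kept their call and direction, 48 lost it and 18 gained one, and none reversed; the cause was not tested. Adam17 (IL-12 against IL-2) was outside the threshold without a filter (adjusted p = 0.0646), with quantile normalization (0.0727) and with centring (0.0629). Replicate numbers were not shown to pair the arrays (the replicate 1 minus 2 differences of the groups correlated at 0.15, 0.015 and -0.022 across genes), and with the replicate block 16 pathway genes were higher in IL-12 than in IL-2 cells, beside 15. Among the named genes Socs1 then passed (adjusted p = 0.049) and Adam17 did not (0.0615), and the rest of the change lay in listed genes not named here.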

Other observations

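Il23r, the IL-23 receptor chain related to gp130 and partner of Il12rb1, and Il21, which encodes interleukin 21, did not pass the filter and are named after their values were seen. Il23r read 7.25 and 6.35 on the IL-12 arrays, against 5.50 and 5.07 on the IL-2 arrays and 5.30 and 5.21 on the naive arrays. Both IL-12 arrays lay above all others, and the IL-12 arrays differed by almost a log2 unit. Il21 read 5.89 and 6.67 on the IL-12 arrays, against 4.52 and 4.54 on the IL-2 arrays and 4.51 and 4.49 on the naive arrays. Neither was tested, since fewer than 2 of their readings exceeded 6.83.

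The protein-coding neighbours of Il6ra on chromosome 3 did not show its steps. Atp8b2 had values of 10.21 and 10.19 in IL-12 cells, 10.67 and 10.71 in IL-2 cells, and 10.40 and 10.52 in naive cells, and She read between 6.95 and 7.15 on all arrays. Lifr and Osmr are neighbours on chromosome 15; Rictor, on the other side of Osmr, had values of 9.54 and 9.53 in IL-12 cells, 9.86 and 9.88 in IL-2 cells, and 10.88 and 10.58 in naive cells.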
